A study of Mus musculus with 9 samples.

Results

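Choroid plexus epithelial cells line the fronds of tissue that hang in the brain ventricles. They make cerebrospinal fluid by moving ions, bicarbonate and water from blood to ventricle, they hold the barrier between blood and that fluid with tight junctions, and they secrete carrier proteins such as transthyretin. In adult rodents they carry dense cilia on the side that faces the ventricle, and they are known for a high level of the serotonin receptor gene Htr2c. The nuclei described here were picked by measured values. A nucleus was taken as choroid plexus when at least 4 of the 8 genes Ttr, Prlr, Folr1, Kl, Clic6, Otx2, Kcnj13 and Slc4a5 had at least 1 unique molecular identifier (UMI, a counted RNA molecule). Of 74895 nuclei with 200 to 5000 genes and at most 10% mitochondrial UMIs, 131 met this, or 0.175% (95% exact binomial interval 0.146 to 0.208%, counting error only).

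The nuclei came from 9 male C57BL/6 mice, 1 library per mouse and 3 mice per group, by single-nucleus RNA sequencing of pooled cortex and hippocampus. Young mice were 5 months old and aged mice 19 months. Per the paper, the aged mice came from a National Institute on Aging colony and the young mice from Jackson Laboratories. Age and source of the mice therefore cannot be told apart in any comparison with age below. All had been injected 8 weeks earlier with an adeno-associated virus (AAV) of a capsid that targets brain vessels, in which a shortened CLDN5 promoter, active in endothelial cells, drove the transgene. Aged mice had received either AAV-B3GNT3 or AAV-EGFP, and young mice AAV-EGFP, where EGFP is a fluorescent control protein and B3GNT3 a glycosyltransferase that lengthens the mucin-type O-glycans of cell surface proteins. Choroid plexus was not a dissected tissue in this study, and the tissue was sorted for single Hoechst-stained nuclei. Libraries held 47332047 to 79964605 UMIs over all barcodes of their matrices, including those outside the limits. The 131 nuclei had a median of 6741 UMIs (2600 to 16768) and 3122 genes, against 4413 UMIs and 2088 genes in the other 74764 nuclei. Of barcodes, 734 occurred in more than 1 library. The barcode of 1 choroid plexus nucleus also occurred in another library, and 0 were shared between choroid plexus nuclei of different libraries.

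The 8 genes that chose the nuclei are given as a description only. Ttr, which encodes the thyroid hormone and retinol carrier transthyretin, had 3867 counts per 1000000 UMIs (CPM) over the pooled choroid plexus nuclei and 12.3 CPM over all others. Prlr, the prolactin receptor, had 901 against 6.01 CPM. Kl, which encodes klotho, had 628 against 3.57 CPM, and the chloride channel gene Clic6 had 763 against 4.10 CPM. Otx2, a homeobox factor of choroid plexus and forebrain patterning, had 464 against 0.722 CPM. The sodium bicarbonate cotransporter gene Slc4a5 had 418 against 0.329 CPM. The folate receptor gene Folr1 had 139 against 0.182 CPM, and the potassium channel gene Kcnj13 had 176 against 3.51 CPM. Ttr was found in all 131 nuclei, from 2 to 119 UMIs with a median of 25. Folr1 and Kcnj13 were found least often of the 8, in 58.0% and 59.5% of the nuclei.

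The number of these 8 genes per nucleus had a low point at 4, with nuclei at every number from 0 to 8. Of the nuclei within the limits, 63877 had 0 of them, 10133 had 1, 711 had 2 and 43 had 3. Only 4 nuclei had 4 of them, 10 had 5, 24 had 6, 58 had 7 and 35 had 8. The rule used these counts, while Htr2c and Trpm3 below were outside it. Pooled Htr2c was 346 CPM in nuclei with 3 markers, 6135 CPM in those with 4 and 13362 CPM in those with 8. Pooled Trpm3, a cation channel gene of choroid plexus, was 4291 CPM with 3 markers, 13133 CPM with 4 and 37886 CPM with 8.

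**Figure D1:**
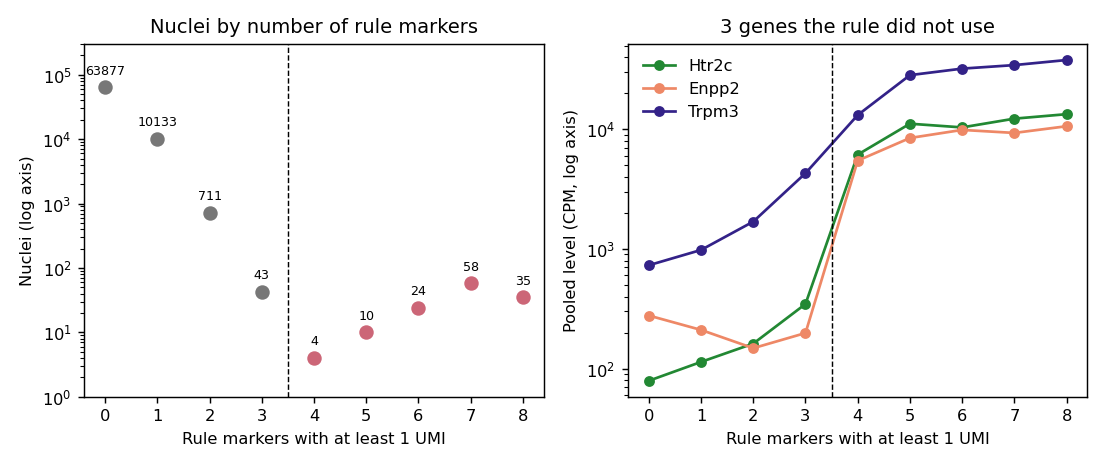
Left, number of nuclei (log axis) by the number of the 8 rule genes with a UMI, with the nuclei taken as choroid plexus to the right of the dashed line; the count falls to 4 nuclei at 4 markers and rises again to 58 at 7. Right, pooled CPM (log axis) of Htr2c, Enpp2 and Trpm3, which the rule did not use, against the same number; Htr2c goes from 346 CPM at 3 markers to 6135 CPM at 4.

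Just inside the limit, 3 of the 4 nuclei with 4 markers had Htr2c and Trpm3. One young AAV-EGFP nucleus of replicate 2 had only 2 Ttr, 4 Htr2c and 23 Trpm3 UMIs, and had UMIs of 7 of 8 neuron markers. Another of the same library had 10 Ttr, 30 Htr2c and 97 Trpm3 UMIs. The aged AAV-EGFP nucleus of replicate 1 had 48 Ttr, 94 Htr2c and 154 Trpm3 UMIs. The nucleus of aged AAV-B3GNT3 replicate 3 went against the label. It had 47 Ttr UMIs but 0 of Htr2c, Trpm3, Otx2os1, Gmnc and Tmem72, and it had UMIs of 7 neuron, 6 ependymal, 6 oligodendrocyte and 4 astrocyte markers. Just outside, of the 43 nuclei with 3 markers, 36 had Ttr, with a median of 1 UMI, and 3 had Otx2, while 6 had Otx2os1. Barcodes with many genes were cut by the upper limit, and 14 of them had at least 4 of the 8 markers.

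Of the 131 nuclei, 45 had at least as many markers of some other class as of the 8, and for 38 of them that class was neuron. At least 4 of 8 neuron markers, the bar used for other classes below, were found in 125 of the 131. The summed level of 8 neuron markers in the choroid plexus nuclei was 16.0% of that in all other nuclei, and 9.94 to 39.7% over the 7 libraries with at least 5 choroid plexus nuclei, highest in young AAV-EGFP replicate 2. None of the 8 neuron markers was at 0 in the pool. Lists of 8 markers stood at 24.2% of the level of all other nuclei for oligodendrocytes, 27.9% for oligodendrocyte precursors, 29.6% for astrocytes and 75.2% for pericytes. For microglia the figure was 114%, with 1 of 8 markers higher. For fibroblasts it was 131%, with 5 of 8 markers higher and 0 UMIs of the defining gene Dcn. The fibroblast figure was 39.4 to 303% over the 7 libraries, highest in aged AAV-EGFP replicate 3. The largest figures were for the other 2 lists. Brain endothelial markers summed to 1036 CPM against 77.4 CPM (1339%), with 2 of 8 higher, Mecom and Slco1a4, and Cldn5 at 1 UMI. Ependymal markers, 5 of which are also in the cilia list, summed to 580 CPM against 8.01 CPM (7241%), with all 7 higher, and to 8406 CPM in the 5 nuclei called ependymal. Aged AAV-B3GNT3 replicate 3, the library of the nucleus with 6 ependymal markers, had 4 UMIs of Tmem212, 1 of Ccdc153, 11 of Dnah12 and 6 of Spag17. Any other library had at most 2 of each, while Foxj1, Dnah6 and Hydin were found in all 3 groups. The marker levels above are those of the pool. Their part in the profile below was not tested beyond leaving the 45 nuclei out, which raised the count of genes at least 4-fold higher from 889 to 957. In the other direction, Ttr was found in 6.95% of all other nuclei, and in 6.50 to 10.4% of nuclei in each of 8 other classes, with their median UMI counts between 1784 and 8694. Thinned to 1000 UMIs per nucleus, with 1883 shallower nuclei left out, Ttr was in 96.2% of choroid plexus nuclei and 2.03% of others. By library, the Ttr level in other nuclei was 0.712 CPM in young AAV-EGFP replicate 3, which held 1 choroid plexus nucleus, and 6.34 to 22.5 CPM in the other libraries.

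The profile outside the rule was compared between the pool of choroid plexus nuclei and the pool of all other nuclei within the limits. The 3 aged AAV-B3GNT3 libraries held 232154, 136635 and 176355 of the 967043 UMIs of the choroid plexus pool, so pooled values lean on that group. A cluster of nuclei chosen by its own genes allows no test against the rest, so folds are descriptions. A gene was compared when it had at least 20 UMIs in the choroid plexus pool or as many expected from the other nuclei. A gene near 0 in one pool thus entered only through its level in the other. It then counted as higher or lower by that bar alone, in the lists below too. Of 8166 such genes, 889 (10.9%) were at least 4-fold higher and 1004 (12.3%) at least 4-fold lower. The median log2 ratio of all compared genes was 0.36.

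Htr2c, which encodes the serotonin receptor 5-HT2C, was 7757 CPM in the lowest, 12669 CPM in the median and 14195 CPM in the highest of the 7 libraries (mean 11795 ± 2799, SD, n = 7). In the other nuclei it was 60.9 to 133 CPM over all 9 libraries, so the ranges lay far apart. Pooled, the ratio was 140, and 98.5% of the choroid plexus nuclei had Htr2c, or 97.7% after thinning to 1000 UMIs, against 5.40% of other nuclei. Enpp2, which encodes the secreted lysophospholipase autotaxin, was 9344 ± 916 CPM (SD, n = 7), from 8249 to 10632, against 222 to 298 CPM in other nuclei. Trpm3 was 33415 ± 6234 CPM (SD, n = 7), from 20757 in young AAV-EGFP replicate 2 to 39612 in aged AAV-B3GNT3 replicate 1, and was 34167 CPM in the pool. Otx2os1, a long noncoding RNA gene on the strand opposite Otx2 (GRCm38 chromosome 14, 48668708 to 48870683), was 3972 ± 880 CPM (SD, n = 7) against 0.591 to 8.71 CPM. The counting is not stated to use strand in the sources used here, and Otx2os1 and Otx2 overlap, so reads of one may stand under the other.

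**Figure D2:**
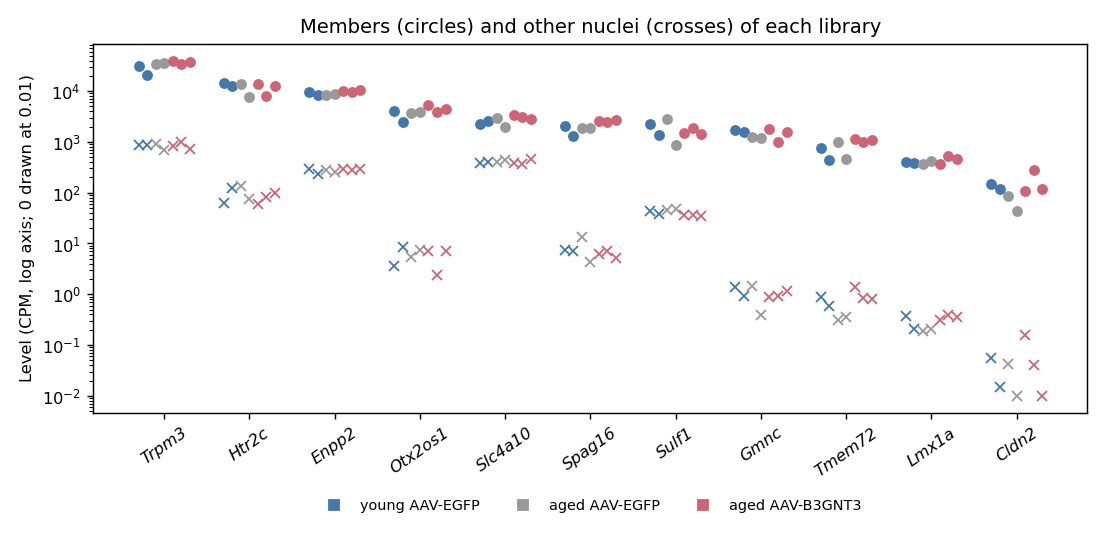
Level (CPM, log axis) of 11 genes outside the rule in the 7 libraries with at least 5 choroid plexus nuclei, each library's choroid plexus nuclei as a circle and its other nuclei as a cross, coloured by group. Each gene's circles lie above all of its crosses, with Htr2c at 7757 to 14195 CPM against at most 133 CPM.

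Among genes with at least 50 UMIs, found in at least 10% of the nuclei and higher in at least 7 libraries, the 30 with the largest ratios included several kinds. The first 2 were Sult1c2, a sulfotransferase gene, at 66.2 against 0.0146 CPM, and Cldn2 (chromosome X, 139800828 to 139811386), the pore-forming claudin of leaky epithelia, at 140 against 0.0356 CPM. Cldn2 was found in 42.7% of the nuclei and was 43.9 to 278 CPM over the 7 libraries. Gmnc (chromosome 16, 26913553 to 26991652), which encodes the geminin family regulator of multiciliated cells GEMC1, was 1500 against 0.921 CPM and was found in 93.9% of the nuclei. Lmx1a, a roof plate homeobox gene, was 416 against 0.262 CPM. Tmem72 was 891 against 0.634 CPM. Oca2, a melanosome channel gene of pigment cells, was 875 against 0.818 CPM and was found in 94.7%. F5, which encodes coagulation factor V, was 223 against 0.278 CPM.

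The rest of the 30 included axoneme genes (Drc7, Wdr63, Daw1 and Spag16), junction genes (Cdh3, which encodes P-cadherin, and Tjp3, which encodes ZO-3), the nucleoside transporter gene Slc28a3, the serine palmitoyltransferase gene Sptlc3, the metalloreductase gene Steap1 and the collagen gene Col8a2. Noncoding or antisense genes were Gm29538, 4930402D18Rik, 2900040C04Rik, C230072F16Rik, Gm14051 and G630093K05Rik. Gm14051 lies on the strand opposite the vitamin C transporter gene Slc23a2, itself 799 against 133 CPM, so these 2 share the limit given for Otx2os1. The remaining names were Wdr72, 4833427G06Rik, Tmprss11a, Tc2n, Wdr86 and Nek5. Ratios of the 30 ran from 202 for Col8a2 to 4518 for Sult1c2, and the smallest with the 45 mixed nuclei left out was 221.

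Of 19 listed choroid plexus identity genes outside the rule in the files, 15 had enough UMIs to be compared. All 15 were at least 4-fold higher, against 10.9% of all compared genes, with a median log2 ratio of 5.93. Those near 0 in other nuclei could be compared only by being high here, so this share follows in part from the filter. Besides Htr2c, Enpp2, Trpm3 and Tmem72, the 15 included Sostdc1, a secreted BMP and WNT antagonist, at 42.4 against 0.167 CPM, and Abca4, a retinoid flippase gene, at 320 against 5.26 CPM. Igf2, often named for choroid plexus, had 1 UMI in the whole pool. Mfrp, Krt18 and 1500015O10Rik had 7, 17 and 19 UMIs, too few for the comparison.

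For ion and water transport, 11 of 17 genes were at least 4-fold higher and 1 was lower, with a median log2 ratio of 2.72. Slc4a10, the sodium-driven bicarbonate transporter of the basolateral side, was 2795 against 423 CPM, and the anion exchanger gene Slc4a2 was 251 against 11.1 CPM. The membrane carbonic anhydrase gene Car12 was 509 against 15.1 CPM and Car14 was 139 against 7.03 CPM. Slc12a2, which encodes the apical cotransporter NKCC1, was 874 against 150 CPM. Kcne2, a potassium channel subunit gene, was 48.6 against 0.249 CPM and the osmosensitive channel gene Trpv4 was 235 against 1.98 CPM. The water channel gene Aqp1 had 26 UMIs, 26.9 against 0.283 CPM. Atp1b1, which encodes a sodium pump subunit, was 366 against 145 CPM, under the 4-fold limit. The voltage-gated channel gene Kcna1 was 19.7 against 88.9 CPM. Cftr had 0 UMIs, which allows up to 3.

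Of 15 secreted and carrier protein genes, 9 were at least 4-fold higher and 0 lower, with a median log2 ratio of 3.19. Bmp6 was 852 against 38.3 CPM, Bmp7 88.9 against 5.59 CPM and Igfbp2 107 against 4.37 CPM. Lbp, which encodes the lipopolysaccharide binding protein, was 70.3 against 0.498 CPM. Several genes of the list stayed under the 4-fold limit. Cst3, which encodes cystatin C, was 35.2 against 52.9 CPM, the transferrin gene Trf 21.7 against 24.6 CPM and the clusterin gene Clu 35.2 against 22.9 CPM.

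For nutrient, hormone and drug transport, 15 of 22 genes were at least 4-fold higher and 0 lower, with a median log2 ratio of 3.38. Slco1c1, a thyroxine carrier gene, was 458 against 52.0 CPM. The glucose transporter gene Slc2a12 was 374 against 5.14 CPM, while Slc2a1, the main glucose transporter of brain vessels, was 25.9 against 13.4 CPM. Slc16a8, the lactate transporter gene of retinal and choroid plexus epithelia, was 48.6 against 0.0167 CPM. Slc29a4, a monoamine and adenosine transporter gene, was 111 against 2.80 CPM, and the sulfate carrier gene Slc13a4 276 against 3.90 CPM. Of the efflux pump genes, Abcc4 and Abcc1 were 3.96- and 3.71-fold higher, just under the limit, at 161 CPM each. Abcb1a had 3 UMIs and Abcg2 was 21.7 against 17.0 CPM. Lrp2 had 0 UMIs.

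Of 13 junction and cytoskeleton genes, 9 were at least 4-fold higher and 0 lower, with a median log2 ratio of 4.19. Besides Cldn2 and Tjp3, the sealing claudin gene Cldn1 was 75.5 against 0.653 CPM, Igsf5 130 against 1.09 CPM, Ocln, which encodes occludin, 124 against 5.91 CPM and Ezr, which encodes the microvillus linker ezrin, 267 against 14.7 CPM. Unlike Tjp3, Tjp1, which encodes ZO-1, was 142 against 495 CPM. Cdh2, which encodes N-cadherin, was 134 against 315 CPM. Cdh1 had 2 UMIs and Epcam 0.

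Among patterning factors, 7 of 12 genes compared were at least 4-fold higher and 0 lower, with a median log2 ratio of 3.09. Msx1 was 93.1 against 0.672 CPM. The cilia regulators were among these 7. Rfx3, a factor that binds promoters of cilia genes, was 1355 against 295 CPM, Rfx2 97.2 against 3.804 CPM and Foxj1, a regulator of motile cilia, 44.5 against 0.757 CPM, while Rfx4, named for astrocytes, was 11.4 against 31.5 CPM. Of 38 Hox genes in the files, 1 had a UMI in the pool, with 2 UMIs in all. Of 9 cilia genes compared, 7 were at least 4-fold higher and 0 lower, with a median log2 ratio of 6.28. Spag16, a central pair gene of the axoneme, was 2119 ± 496 CPM (SD, n = 7), from 1283 to 2727, against 4.38 to 13.4 CPM in other nuclei, and 2467 CPM in the 5 nuclei called ependymal. Dnah6, a dynein heavy chain gene, was 352 against 2.20 CPM, Hydin 155 against 1.62 CPM, Cfap44 368 against 10.4 CPM and Ak9 204 against 1.05 CPM. Spag17 and Dnah12 had 9 and 14 UMIs in the pool.

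The X-box, the DNA motif bound by RFX factors, was searched in the promoters of the cilia list because Rfx2 and Rfx3 were among the higher genes. It was written as GTTNCCNNNGNAAC, read on both strands, in windows of 250 bases before to 50 after each start in the RefSeq annotation of GRCm38.p6. It was found in 264 of 32851 promoters of all genes (0.804%). Promoter sequences were matched for 11 of the 15 cilia genes in the files, and 4 of the 11 (36.4%) held it. These 4, Spag16, Hydin, Ak9 and Cfap44, are among the 5 matched cilia genes that were at least 4-fold higher, and Dnah6 is the other. The lines below show the promoters, 5′ to 3′ on the plus strand, with the match in capitals, at chr1:69826720-69827019 for Spag16, chr8:110266727-110267026 for Hydin, chr10:41303684-41303983 for Ak9 and chr16:44394549-44394848 for Cfap44.
Spag16: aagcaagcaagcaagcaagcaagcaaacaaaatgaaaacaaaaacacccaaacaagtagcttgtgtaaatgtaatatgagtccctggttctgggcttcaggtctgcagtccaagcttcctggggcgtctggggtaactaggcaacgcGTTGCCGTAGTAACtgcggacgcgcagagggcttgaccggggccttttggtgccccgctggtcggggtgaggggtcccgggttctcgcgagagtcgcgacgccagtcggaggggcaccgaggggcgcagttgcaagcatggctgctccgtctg
Hydin: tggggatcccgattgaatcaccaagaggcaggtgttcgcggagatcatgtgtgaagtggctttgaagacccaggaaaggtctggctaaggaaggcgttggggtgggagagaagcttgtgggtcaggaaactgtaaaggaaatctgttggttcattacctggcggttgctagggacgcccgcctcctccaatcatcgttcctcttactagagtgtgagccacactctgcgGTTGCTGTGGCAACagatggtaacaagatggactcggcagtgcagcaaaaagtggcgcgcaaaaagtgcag
Ak9: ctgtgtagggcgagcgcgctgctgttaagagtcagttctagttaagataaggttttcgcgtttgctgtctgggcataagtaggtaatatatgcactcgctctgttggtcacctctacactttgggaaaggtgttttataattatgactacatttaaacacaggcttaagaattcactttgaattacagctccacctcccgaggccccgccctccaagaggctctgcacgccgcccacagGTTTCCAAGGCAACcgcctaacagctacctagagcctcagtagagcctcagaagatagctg
Cfap44: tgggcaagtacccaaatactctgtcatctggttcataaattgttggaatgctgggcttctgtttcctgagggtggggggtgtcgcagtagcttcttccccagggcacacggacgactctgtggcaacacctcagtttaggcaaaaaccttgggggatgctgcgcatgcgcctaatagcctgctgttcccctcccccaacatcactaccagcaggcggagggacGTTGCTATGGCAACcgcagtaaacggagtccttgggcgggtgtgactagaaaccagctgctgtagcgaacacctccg

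The 4 matches began 103, 21, 11 and 27 bases before the start site in that order. A match says only that these letters stand in the window. For OTX factors, the motif TAATCC was in 7.06% of all promoters. Of the 26 matched genes among the 30 with the largest ratios, 2 (7.69%) had it in a promoter, Wdr63 and Gm14051, and 8.14% of all genes had it, so the share was near that of all genes.

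Of 14 receptor genes, 5 were at least 4-fold higher and 0 lower, with a median log2 ratio of 1.23. Besides Htr2c, these were the leptin receptor gene Lepr (140 against 8.35 CPM), Il1r1 (52.7 against 6.62 CPM), Ednrb (46.5 against 9.22 CPM) and Ifnar2 (56.9 against 14.0 CPM). Ddr1, Fgfr2 and Igf1r were 2.65-, 2.08- and 2.01-fold higher, under the limit. In the interferon and MHC class I list, only 7 of 20 genes had enough UMIs, and 4 of these were at least 4-fold higher with the pooled value and 2 with the median over libraries. Ifi27 was 95.1 against 7.45 CPM and Rnf213 70.3 against 14.8 CPM. Rnf213 had 23, 7 and 20 UMIs in the aged AAV-B3GNT3 libraries and at most 7 in any other library. Of the oxidative stress list, 2 of 10 were higher, against 10.9% of all compared genes. These were Nqo1, a quinone reductase gene, at 34.1 against 2.14 CPM and Cat, the catalase gene, at 60.0 against 10.6 CPM.

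Glycan genes bear on the transgene. Of 11 genes of mucin-type O-glycan synthesis compared, 0 were at least 4-fold higher and 7 were lower, with a median log2 ratio of −2.50, where 12.3% of all compared genes were lower. The other nuclei are mostly neuronal by content, with 78.8% of their UMIs in neuron nuclei, so these ratios are largely ratios to neurons. The 7 were Galnt7, Galnt13, Galnt16, Galnt17, Galnt18, St6galnac3 and St6galnac5. St6galnac5, a sialyltransferase gene, was 12.4 against 251 CPM, and Galnt13, a starter enzyme gene of neurons, 64.1 against 404 CPM. St6galnac2, a sialyltransferase gene of the same list, was outside these counts because its symbol stands for 2 genes in the files, and it was higher. One of the 2 (ENSMUSG00000057286) had 93 UMIs, 96.2 against 1.65 CPM or 58.4-fold, and was 10.6 to 168 CPM over the 7 libraries. The other had 2 UMIs. Galnt1, Galnt10, Galnt11 and C1galt1, which encodes the core 1 synthase, were 0.91- to 1.78-fold. The mouse gene B3gnt3 had 0 UMIs in 131 nuclei of all 9 libraries, which allows up to 3. Whether reads of the transgene would count under this gene is not given in the sources used here. The 0 therefore does not tell whether the transgene was present. Of 17 genes of heparan sulfate synthesis and proteoglycans, 2 were higher and 2 lower, against 10.9% and 12.3% of all compared genes. Both counts were thus near the shares of all genes, and the median log2 ratio of 0.24 was near that of all genes. Sulf1, which encodes the extracellular 6-O-endosulfatase, was 1730 ± 647 CPM (SD, n = 7), from 878 to 2836, against 35.4 to 51.6 CPM. Its relative Sulf2 was 15.5 against 61.2 CPM. Ndst3 was 17.6 against 148 CPM and Ext1 188 against 780 CPM.

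**Figure D3:**
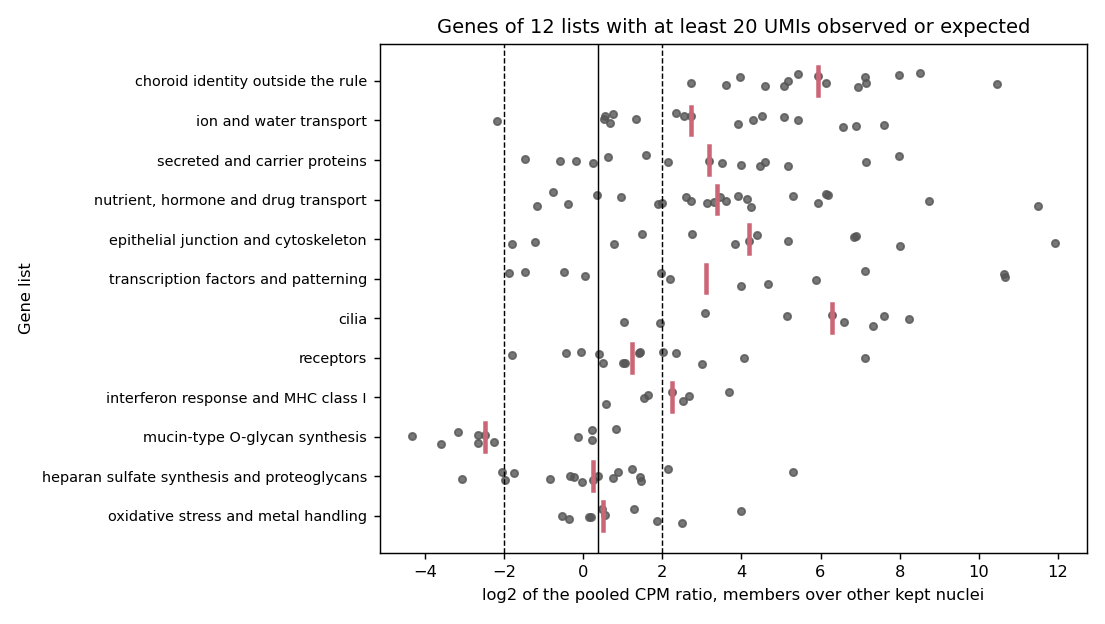
log2 ratio of pooled CPM, choroid plexus nuclei over other nuclei, for each compared gene of 12 lists (grey points), with the list median as a red bar, the median of all compared genes (0.36) as a solid line and 4-fold as dashed lines. The cilia and identity medians lie at 6.28 and 5.93 and the mucin-type O-glycan median at −2.50.

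Of the genes with the lowest ratios, the 10 lowest with at least 50 expected UMIs were Cpne4, Srrm3, Prkar2b, St6galnac5, Gm32647, Gfra1, Tmem63c, Trpc6, Gm48530 and Ephb2. Cpne4, a copine gene of neurons, had 5 UMIs, 5.17 against 198 CPM. Srrm3, which encodes a neuronal splicing factor, was 7.24 against 151 CPM. Ratios of these 10 were 0.0261 to 0.0583.

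Other barrier and vascular classes were taken by the same kind of rule, from at least 4 of 8 markers, and gave 459 brain endothelial, 193 fibroblast and 5250 astrocyte nuclei, while 5 ependymal nuclei were too few to compare. Pooled values are set side by side without a test. Trpm3 was 34167 CPM in choroid plexus nuclei, 21976 CPM in fibroblasts, 3580 CPM in astrocytes and 151 CPM in brain endothelial nuclei. Slc6a20a, a proline transporter gene, was 474, 1891, 47.5 and 60.3 CPM in that order, and Bmp6 was 852, 1925, 97.5 and 14.9 CPM, so both were higher in fibroblasts. Slc39a12, a zinc transporter gene, was 362 CPM in choroid plexus nuclei and 381 CPM in astrocytes. The blood-brain barrier genes ran the other way. Slc2a1 was 25.9 CPM against 1387 CPM in brain endothelial nuclei, Abcb1a 3.10 against 726 CPM and Tjp1 142 against 1514 CPM, with Cldn5 at 1 UMI in the pool. Genes of the endothelial list that choroid plexus nuclei had were Slco1a4, an organic anion carrier gene, at 250 CPM against 2018 CPM in brain endothelial nuclei, and the factor gene Mecom at 752 against 2214 CPM. Gmnc, Lmx1a and Tmem72 had 0 CPM in both brain endothelial nuclei and fibroblasts.

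**Figure D4:**
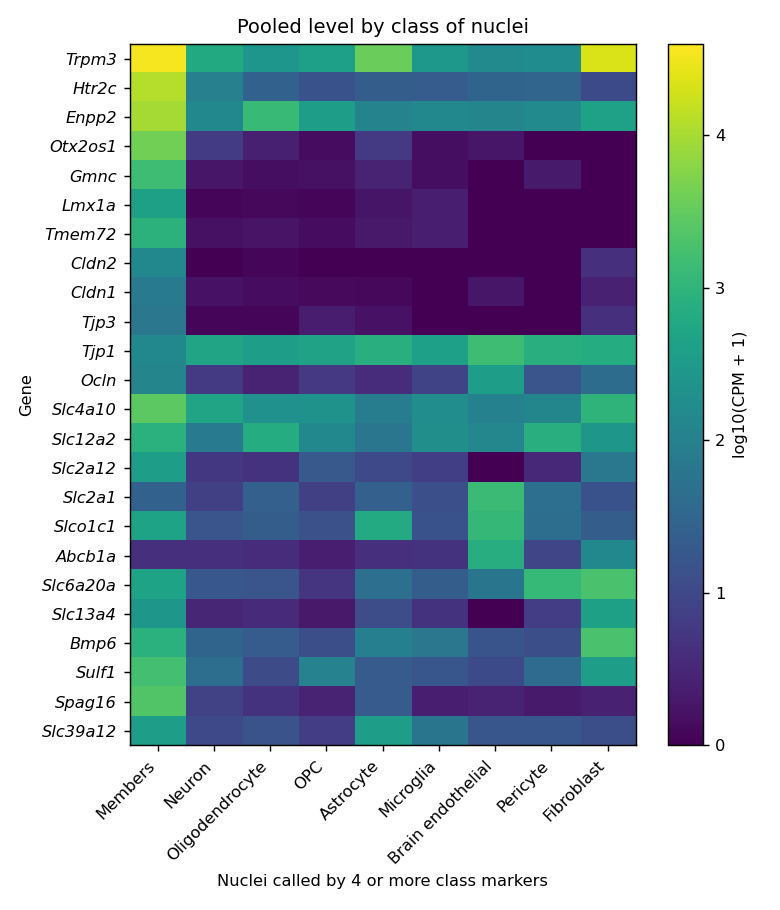
Pooled level, as log10(CPM + 1), of 24 genes in choroid plexus nuclei and in 8 other classes of nuclei. Otx2os1, Gmnc, Lmx1a, Tmem72 and Cldn2 are bright in the first column and dark in the others, Trpm3 is bright also in fibroblasts (21976 CPM), and Slc2a1 and Abcb1a in brain endothelial nuclei.

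Choroid plexus nuclei also differed among themselves. For each of 2235 genes with at least 100 UMIs, the spread of counts over the 131 nuclei was divided by that of counting error at each nucleus's size, so that an index of 1 is counting error alone. The median index was 1.33. The index rises with a gene's count for the same relative spread, so it does not rank genes of different level. The excess over 1 was therefore also divided by the mean UMIs per nucleus, which gives the squared coefficient of variation (CV) beyond counting error. Of the 12 genes with the largest index, 10 were lower in choroid plexus nuclei than elsewhere, with neuron and astrocyte genes among them, and their squared CV was 2.03 to 16.8. A single nucleus held 40.6% of all Lrrtm4 UMIs, and the squared CV of Lrrtm4 was 10.6, or 1.71 within libraries. The other 2 of the 12 were the abundant genes Htr2c and Trpm3, and here the relative spread was smaller, with a squared CV of 0.255 for Htr2c and 0.0874 for Trpm3. Genes at least 4-fold higher in choroid plexus nuclei had a median squared CV of 0.286. Trpm3 was thus among the more even of them, with quartiles at 283 and 414 per 10000 UMIs. Htr2c ran from 0 to 241 UMIs per nucleus, with quartiles at 75.7 and 164 per 10000 UMIs, and 2 of the 131 nuclei had none. Enpp2 had a squared CV of 0.117 and Otx2os1 0.252. Of the rule genes, whose spread the rule itself bears on, Kcnj13 (1.19) and Prlr (0.639) had the largest squared CV. Folr1 (0.350), Kl (0.293), Ttr (0.287), Otx2 (0.248), Clic6 (0.147) and Slc4a5 (0.126) followed. Prlr had quartiles at 3.32 and 14.9 per 10000 UMIs.

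The libraries differed in how many of these nuclei they gave. Young AAV-EGFP libraries gave 24, 13 and 1 nuclei, or 0.263, 0.132 and 0.0167% of nuclei within the limits. Aged AAV-EGFP libraries gave 10, 3 and 9, or 0.139, 0.0300 and 0.110%. Aged AAV-B3GNT3 libraries gave 28, 20 and 23, or 0.454, 0.200 and 0.276%. The group means were 0.137 ± 0.123, 0.0931 ± 0.0566 and 0.310 ± 0.130% (SD, n = 3 each). The F statistic of the 3 groups, compared over all 280 partitions of the libraries, did not pass the threshold (exact permutation p = 0.0893). The 3 aged AAV-B3GNT3 libraries all lay above the 3 aged AAV-EGFP libraries, by 0.217 percentage points on average, and the exact two-sided permutation p was 0.1, the smallest that 3 against 3 allows. Beside the share, the Ttr level in other nuclei of a library was 9.07 to 22.5 CPM in aged AAV-B3GNT3 and 6.34 to 11.9 CPM in aged AAV-EGFP libraries. How much choroid plexus was in the dissected tissue was not measured, so it and the groups cannot be told apart.

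**Figure D5:**
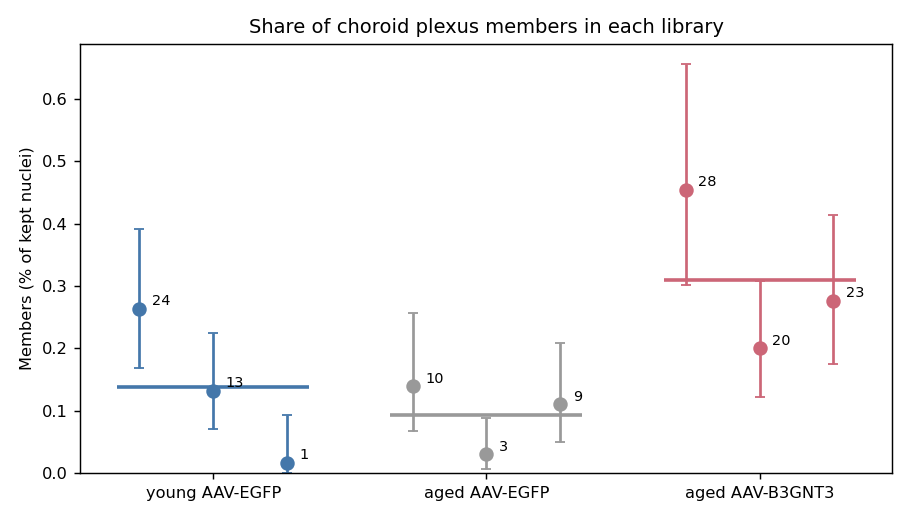
Share of nuclei within the limits that were choroid plexus nuclei in each library, with the exact 95% binomial interval as bars, the number of nuclei beside each point and the group mean as a line. The 3 aged AAV-B3GNT3 libraries lie at 0.200 to 0.454% and the other 6 at 0.0167 to 0.263%.

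Ageing and treatment were tested on the sums of counts per library, in the 7 libraries with at least 5 choroid plexus nuclei, which left 2 young AAV-EGFP, 2 aged AAV-EGFP and 3 aged AAV-B3GNT3 libraries. Of 3804 genes outside the rule, edgeR's quasi-likelihood test with Benjamini-Hochberg adjustment called 0 (0%) for ageing and 0 (0%) for treatment at an adjusted p under 0.05. At an unadjusted p under 0.05 there were 241 and 219 genes, and the smallest adjusted p values were 0.425 and 0.838. DESeq2 called 0 in both, with 96 and 77 at an unadjusted p under 0.05. Without a filter on low counts edgeR called 36 for ageing and 9 for treatment. Leaving out single libraries also moved the counts, as given below. The sums held only 46186 to 232154 UMIs. The 5 genes with the smallest p are given as values. Levels are CPM on TMM-scaled totals.

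For ageing, Nat8f3, an acetyltransferase gene of a family of close copies, was 21.0 and 11.4 CPM in the young libraries and 173 and 147 CPM in the aged AAV-EGFP libraries (log2 fold change 3.09, SE 0.54, edgeR adjusted p = 0.425). It was 142 to 187 CPM in the 3 aged AAV-B3GNT3 libraries, so all 5 aged libraries lay above both young ones. In the other nuclei it was 3.97 to 4.50 CPM in the 3 young and 5.71 to 18.6 CPM in the 6 aged libraries, again without overlap. AC149090.1, on the unplaced scaffold JH584304.1, was 409 and 286 CPM in young and 1168 and 1442 CPM in aged AAV-EGFP libraries (log2 fold change 1.89, SE 0.37, edgeR adjusted p = 0.509). In the other nuclei it was 102 to 397 CPM in the 3 young libraries and 679 to 1030 CPM in the 6 aged libraries, which did not overlap either. For both genes, age and the source of the mice cannot be told apart. Copb1, which encodes a coatomer subunit, was 121 and 126 CPM in young, 21.6 and 14.7 CPM in aged AAV-EGFP and 83.5 to 113 CPM in aged AAV-B3GNT3 libraries. Gm28928 and Dgkb, the other 2, were 189 and 1109 CPM and 110 and 252 CPM in young libraries. Each was higher in replicate 2, the library with the most neuron signal. Both were at most 43.3 CPM in aged AAV-EGFP libraries. Gm28928 was at least 1538 CPM in the other nuclei of every library.

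For treatment, Sh3rf1, which encodes a ubiquitin ligase and scaffold, was 325 and 309 CPM in aged AAV-EGFP and 801, 743 and 565 CPM in aged AAV-B3GNT3 libraries (log2 fold change 1.15, SE 0.29, edgeR adjusted p = 0.838). In young libraries it was 672 and 675 CPM. Pde7b, a phosphodiesterase gene, was 151 and 118 CPM in aged AAV-EGFP and 12.5 to 28.3 CPM in aged AAV-B3GNT3 libraries. Mboat2 was 389 and 235 CPM against 117 to 130 CPM, and Rims2, a synapse gene, 389 and 456 CPM against 135 to 232 CPM. Astn2 was 86.5 and 633 CPM against 33.4 to 96.1 CPM, with overlap. In the other nuclei of the 9 libraries Pde7b was 332 to 614 CPM, Rims2 710 to 1082 CPM, Astn2 462 to 704 CPM and Mboat2 137 to 210 CPM, while Sh3rf1 was 80.2 to 157 CPM. The same 2 aged AAV-EGFP libraries enter the ageing and the treatment comparison.

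None of the genes of the 12 lists passed the test in either comparison. Medians of the log2 change with age, over the genes of a list that could be tested, were 0.05 for identity genes (14 genes), 0.04 for ion transport (13), 0.29 for secreted proteins (10) and 0.23 for nutrient transport (15). They were −0.33 for junctions (11), −0.03 for patterning factors (7), 0.09 for cilia (8), 0.10 for receptors (8) and −0.01 for heparan sulfate (9), against −0.02 over all 3804 genes. With treatment the medians of the same lists were, in that order, 0.14, 0.20, 0.16, −0.13, −0.05, −0.31, −0.03, −0.05 and 0.02, against −0.01 over all genes. The other 3 lists had 2 testable genes each. For markers of other cell types in the same sums, medians lay farther from 0. Those with age and with treatment were −0.71 and −0.59 for neuron markers (7 genes), −1.44 and 0.83 for astrocyte markers (5), 0.94 and −1.10 for oligodendrocyte precursor markers (3) and −0.39 and 0.50 for oligodendrocyte markers (3), and 0 of these markers passed the test. Other classes had at most 2 testable markers. The part of these cell types in the differences given was not tested. Trpm3 was 30847 and 22386 CPM in young and 34770 and 36118 CPM in aged AAV-EGFP libraries (log2 fold change 0.41, SE 0.21, edgeR adjusted p = 0.755). Htr2c was 14025 and 13663 CPM in young, 13977 and 7797 CPM in aged AAV-EGFP and 7576 to 13116 CPM in aged AAV-B3GNT3 libraries, with overlap in each comparison. Cldn2 was 147 and 126 CPM in young, 86.5 and 44.1 CPM in aged AAV-EGFP and 104 to 269 CPM in aged AAV-B3GNT3 libraries. Its log2 change was −1.15 (SE 0.67) with age and 1.34 (SE 0.62) with treatment, with edgeR adjusted p values of 0.771 and 0.838. The 2 aged AAV-EGFP values of Cldn2 rest on 4 and 3 UMIs. Aged AAV-EGFP replicate 2, left out of the fit, had 5 Cldn2 UMIs in 3 nuclei, or 264 CPM without TMM scaling, above both young libraries. Ocln, another junction gene, took the opposite directions. It was 105 and 91.5 CPM in young, 216 and 221 CPM in aged AAV-EGFP and 96.1 to 125 CPM in aged AAV-B3GNT3 libraries. Its log2 change was 1.13 (SE 0.38) with age and −0.96 (SE 0.33) with treatment, with edgeR adjusted p values of 0.755 and 0.838. The 2 aged AAV-EGFP values of Ocln rest on 10 and 15 UMIs, and the left-out replicate 2 had 4 UMIs, or 211 CPM without TMM scaling. Young AAV-EGFP replicate 3, also left out, had 0 UMIs of Cldn2 and of Ocln in 1 nucleus. For Cldn2 and Ocln alike, the changes with age and with treatment use the same 2 aged AAV-EGFP libraries and are not independent.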

How the data were processed

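Per the labels and the study's methods, nuclei were processed with 10x Genomics 3′ chemistry (v3.1) and reads were aligned to GRCm38 with Cell Ranger, version 4.0.0 per the submitters' processing notes and 7.2.0 per the file headers. The deposited values are raw UMI counts per gene and barcode, before the authors' removal of free RNA and doublets, and none was done here. Whether intronic reads were counted and whether counting used strand is not given in the sources used here. Of 31053 genes, 31011 had coordinates in GENCODE vM21. The rule genes, gene lists and tests were chosen with earlier results of these data known. A symbol that stands for 2 genes in the files was left out of its list.

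Pooled CPM is the sum over nuclei divided by their total. Named genes were, with at least 50 UMIs, in at least 10% of choroid plexus nuclei and higher in at least 7 libraries, the 30 with the largest ratio, the 10 with the smallest ratio among those with at least 50 expected UMIs, the 5 with the smallest p where no gene passed, and genes of the lists. Counts summed per library were tested with edgeR 4.0.16 (filterByExpr minimum 10, TMM, quasi-likelihood, 3 groups in 1 fit, 4 residual degrees of freedom), leaving out the 8 rule genes and the 2 libraries with under 5 choroid plexus nuclei, and with DESeq2 1.42.0. The code was tested on simulated data. Replicate libraries differed by more than counting error (chi-square per degree of freedom 2.02 to 5.25), and replicates are separate mice. Intervals and floors cover counting error only. Tests are two-sided. Some genes of the lists are not reported here.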

Additional observations from a re-analysis of the deposited data

Results flagged for a closer look

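Above the upper limit on genes, 2923 barcodes lay outside every comparison, and 14 of them, from 6 libraries, had at least 4 of the 8 rule genes. Their pooled levels were 801 CPM of Htr2c, 2207 CPM of Trpm3 and 748 CPM of Enpp2, above the 86.4, 790 and 264 CPM of other nuclei within the limits and below the 12054, 34167 and 9629 CPM of choroid plexus nuclei. At least 7 of 8 neuron markers had UMIs in all 14, each of which had all 8, and in 33 of the 131 choroid plexus nuclei. The median was 37800 UMIs in the 14 and 6741 in the choroid plexus nuclei. Finding a marker, of neurons or of the rule, is thus not comparable between them. With no upper limit on genes, which adds these 14 to the choroid plexus nuclei and the other barcodes above the limit to the totals, the exact permutation p for the shares of the groups was 0.146.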

How the results depend on the processing

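The p value of the comparison of shares among groups stayed above 0.05 in every alternative. It was 0.0893 with at least 5 of the 8 genes, 0.129 with at least 3, 0.146 with no upper limit on genes, 0.1 with mixed nuclei left out and 0.0607 to 0.268 with each library left out. The count of genes at least 4-fold higher was 957 without mixed nuclei, 897 with at least 5 of the 8 and 820 with the median over libraries. For the tests of genes, without a filter on low counts edgeR called 36 genes for ageing (4 higher, 32 lower) and 9 for treatment (2 higher, 7 lower), of which 31 and 8 were also among the genes tested with the filter. The cause was not tested. With single libraries left out, calls for ageing ranged from 0 to 45 and for treatment from 0 to 2. The 45 came without young AAV-EGFP replicate 1, which leaves replicate 2, the library with the most neuron signal, as the only young library, assumed to vary like the other groups. Most of them were lower with age, and most were genes at least 4-fold lower in choroid plexus nuclei than in other nuclei, with a median ratio of 0.144. The part of neuron RNA in these calls was not tested. Without aged AAV-EGFP replicate 3, 1 gene was called for ageing and 2 for treatment. The other settings (DESeq2, RLE size factors, at least 5 or 3 of the 8, no upper limit, mixed nuclei left out, the library profile subtracted, only the groups compared, and, chosen after seeing the data, all 9 libraries) called 0 in both comparisons.

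Deviations from the group means had correlations of −0.00211 to 0.212 between same-numbered libraries and −0.212 to 0.171 between others. Where a group has 2 libraries their deviations mirror each other, so these values cannot tell whether the numbers pair the mice. The replicate numbers were not taken as pairs. With the replicate block, 0 genes were called for ageing and 0 for treatment. The group tests rest on few nuclei, since 2 libraries with 1 and 3 choroid plexus nuclei were left out and the others held 9 to 28.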

Other observations

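Gene families seen after the values were known add to the profile, and they are descriptions without a test. Of 18 collagen chain genes compared, 9 (50%) were at least 4-fold higher in choroid plexus nuclei, against 10.9% of all genes, and 5 (27.8%) were at least 4-fold lower, against 12.3%. Col8a1 was 1328 against 12.04 CPM, Col9a3 684 against 4.94 CPM, Col4a3 340 against 1.72 CPM and Col4a4 316 against 2.98 CPM, the last 2 being chains that pair in the specialised basement membrane known from kidney. Pericytes had 255 CPM of Col4a3 and 186 CPM of Col4a4. Of 149 solute carrier genes, 34 (22.8%) were at least 4-fold higher and 24 (16.1%) lower. All 6 axonemal dynein heavy chain genes compared and 13 of 16 genes with a Cfap symbol were at least 4-fold higher. A gene near 0 in other nuclei was compared only where choroid plexus nuclei had at least 20 UMIs of it, and it then counted as higher. These shares therefore do not describe the families as a whole. Of 22 glutamate receptor genes, 19 were at least 4-fold lower, and 8 of 11 GABA-A receptor subunit genes. Other receptor and carrier genes with large ratios were Crhr2, the urocortin receptor gene, at 95.1 against 0.835 CPM, and Folr2, a second folate receptor gene, at 91.0 against 0.477 CPM.

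Genes at least 4-fold higher had a median span of 45.7 kb in the annotation, those at least 4-fold lower 125 kb, and all compared genes 47.4 kb. The lincRNA and antisense types made up 7.87% of the higher, 10.4% of the lower and 4.34% of all compared genes.

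Cx3cr1, the fractalkine receptor gene that marks microglia, was 105 CPM in choroid plexus nuclei against 12.3 CPM in all others and 608 CPM in microglia, and it was found in 54.2% of choroid plexus nuclei. The other microglia markers did not share this, since P2ry12 had 7 UMIs, Csf1r 4 and C1qa 0. In the annotation, Cx3cr1 (chromosome 9, 119901616 to 120069879) overlaps the cilia gene Ttc21a and others on the opposite strand and Gorasp1, Csrnp1 and Xirp1 on its own.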
